A study of Mus musculus with 6 samples.

Results

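Chemokines are small secreted or membrane-bound proteins that direct the movement of leukocytes, and chemokine receptors are the G protein-coupled receptors that read them. The set described here held every protein-coding row of the gene table whose symbol starts with Ccl, Cxcl, Ccr or Cxcr and a digit, together with Cx3cl1, Cx3cr1, Xcl1, Xcr1 and Ackr1 to Ackr4. It had 67 rows with 61 symbols, 44 of ligands and 23 of receptors, of 22046 protein-coding rows and 54532 rows in all. Expression was measured by RNA-seq of polyadenylated RNA from the hearts of 6 mice of 12 weeks, 3 wild-type (WT) and 3 Mc4r knockout (KO), with 1 library per mouse. The labels name heart as the tissue and "Muscle" in the sample titles, whereas the study's discussion names the left ventricle and male mice. All mice were on a C57B/6/N background and came from matings of heterozygotes, and Mc4r, which encodes the melanocortin-4 receptor of the hypothalamus, was absent from every tissue of the KO mice and not from the heart alone. Loss of Mc4r is known to cause obesity, and the comparison asks which chemokine genes of the heart differ without it.

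Chemokines fall into families by the spacing of their first cysteines. CC chemokines mainly attract monocytes, eosinophils and T cells, CXC chemokines attract neutrophils or lymphocytes, and CX3C and XC chemokines each have 1 or few members. Classical receptors couple to inhibitory G proteins and move the cell towards the ligand, whereas the atypical receptors Ackr1 to Ackr4 bind chemokines without that coupling and remove or carry them. In the heart, Cxcl12 with its receptors Cxcr4 and Ackr3 is known from vessel growth, and Ccl2 with Ccr2 from the recruitment of monocytes. The spacing is shown for 1 gene of each family by the coding bases around the first cysteines, with the cysteine codons in capitals, from the GENCODE M21 transcripts (build GRCm38) of Ccl6 (chr11:83587882-83593087, minus strand), Cxcl12 (chr6:117168535-117181367, plus strand), Cx3cl1 (chr8:94772009-94782427, plus strand) and Xcl1 (chr1:164931644-164935527, minus strand).
Ccl6: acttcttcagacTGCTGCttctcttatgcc
Cxcl12: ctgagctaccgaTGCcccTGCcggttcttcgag
Cx3cl1: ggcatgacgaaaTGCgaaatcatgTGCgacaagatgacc
Xcl1: gaagagagtagcTGTgtgaacttacaa
The cysteine codons are adjacent in the CC gene Ccl6, 1 codon apart in the CXC gene Cxcl12 and 3 codons apart in Cx3cl1, and Xcl1 has only 1 of the pair.

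Between 14691076 and 16047003 reads were counted on genes per library. Mc4r itself had 2 reads in WT replicate 3 and 0 in the other libraries, so its level does not check the genotype. Cardiomyocyte markers were high in all libraries, with a summed level of 12271 to 12942 FPKM in WT and 14846 to 16379 in KO. FPKM are fragments scaled to the length of the gene and to a factor of each library, so that levels can be compared between genes. That factor was not the read total alone. Relative to scaling by reads on genes, the values were at 1.05, 1.04 and 0.942 in WT and 0.946, 1.02 and 0.975 in KO. A factor from the median ratio of genes between libraries was 1.0058 in every library. Some libraries stood apart. Mitochondrial genes took 59.3%, 57.4% and 47.1% of the summed FPKM in WT replicates 1, 2 and 3 and 43.6%, 46.6% and 43.0% in KO replicates 1, 2 and 3. The 5 red cell markers summed to 4497, 859 and 6344 FPKM in the WT libraries and to 1651, 663 and 620 FPKM in the KO libraries. In a tissue sample, fewer cells of a type and less RNA per cell cannot be told apart, and this holds for every result here.

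No chemokine or receptor gene passed the test between the groups. Of the 67 rows, 43 had a mean of at least 0.1 FPKM and were tested, 29 ligands and 14 receptors. A call by limma on log2(FPKM + 0.1) needed an adjusted p under 0.05 and a log2 fold change beyond 0.75 in either direction, and 0 of 43 were called, beside 0.46% of the 18035 genes tested. The smallest adjusted p among them was 0.0719, for Ccl24. An unadjusted p under 0.05 was reached by 8 of 43 (18.6%), beside 20.9% of all genes tested, so the share was near the background. In KO, 3 of 43 (6.98%) were higher at that level, beside 12.0% of all genes, and 5 of 43 (11.6%) were lower, beside 8.83%. The 3 KO libraries lay all above the 3 WT libraries for 4 of 43 (9.30%), beside 14.1% of all genes, and all below for 4 of 43 (9.30%), beside 12.4%. The estimate was higher in KO for 19 of 43 (44.2%), beside 48.8% of all genes. The median log2 fold change was -0.13 over the 43 genes, -0.13 over the ligands and -0.10 over the receptors, beside -0.01 over all genes tested. With 3 mice against 3, an exact permutation test of a single value cannot go below p = 0.1.

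**Figure D1:**
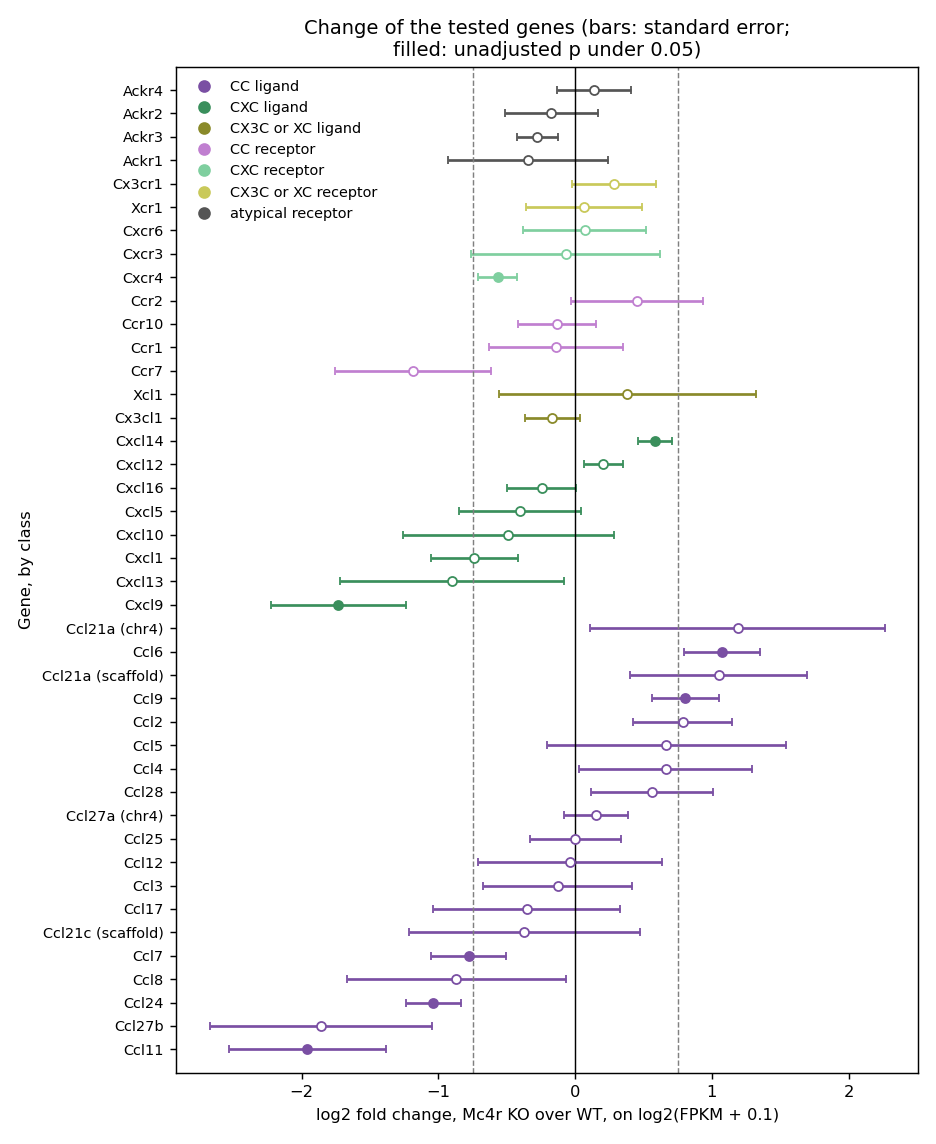
Log2 fold change of 42 of the 43 tested genes (KO over WT, on log2(FPKM + 0.1)), by family, with the standard error as bars and dashed lines at 0.75 in either direction. Filled points have an unadjusted p under 0.05, and none of the 43 passed the adjusted test.

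A few genes made up most of what was measured. The 15 ligands and 3 receptors with a mean of at least 1 FPKM are plotted by library, and the other 25 tested genes were lower, 16 of the 43 tested with under 10 reads per library on average. Summed over the 44 ligand rows, the level was 79.7, 78.3 and 97.4 FPKM in WT and 107, 103 and 82.1 FPKM in KO. Summed over the 23 receptor rows, it was 39.8, 31.9 and 30.4 FPKM in WT and 28.8, 28.5 and 26.3 FPKM in KO. The ligand ranges of the groups overlapped, and the receptor sum of each KO library lay below that of each WT library. Cxcl12 made up 26.9% to 47.2% of the ligand sum and Ackr3 62.5% to 73.1% of the receptor sum, so single genes weigh heavily in these sums.

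**Figure D2:**
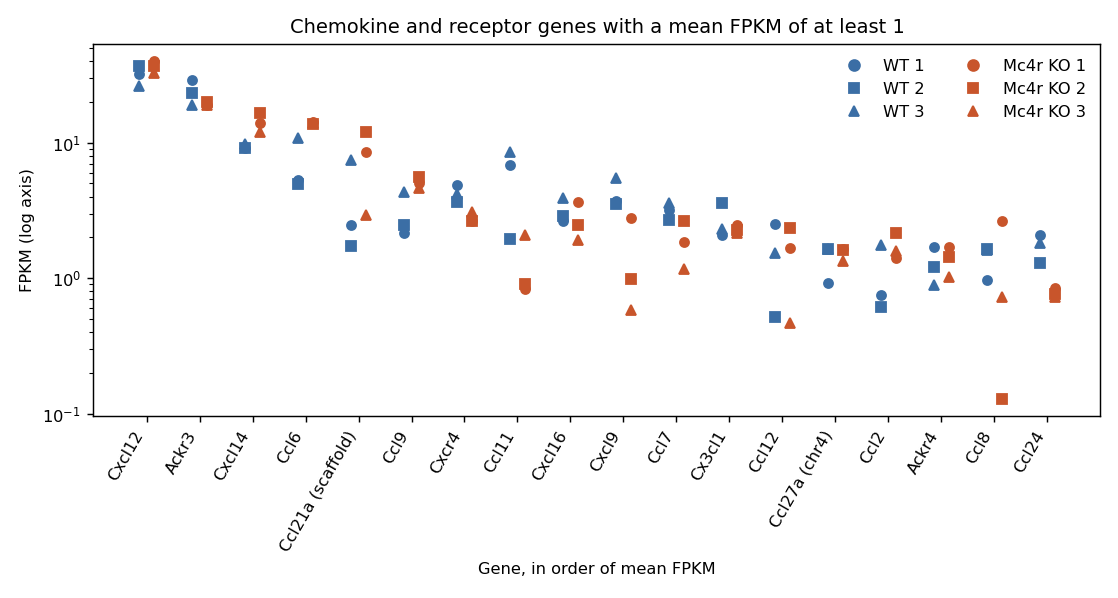
FPKM (log axis) of the 18 genes with a mean of at least 1, in order of their mean, with 1 point per library. Cxcl12 and Ackr3 lie highest, and the groups are apart for Cxcl14, Ccl6, Ccl9, Cxcr4, Cxcl9, Ccl7 and Ccl24 but overlap for the other genes, Ccl11 included.

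Cxcl12, the ligand of Cxcr4 and Ackr3, which stromal and endothelial cells make without inflammation, had 32.1, 37.0 and 26.2 FPKM in WT and 40.1, 36.6 and 32.6 FPKM in KO. The groups overlapped, and the log2 fold change was 0.21 ± 0.14 (SE, adjusted p = 0.460). It ran from 0.010, scaled to the sum outside the mitochondrial chromosome, to 0.52, with the mitochondrial share as a covariate, and was 0.075 without WT replicate 3, 0.13 without KO replicate 1 and 0.32 without WT replicate 2, with no call in any of these. Cxcr4, its classical receptor, had 4.86, 3.62 and 4.16 FPKM in WT and 2.64, 2.66 and 3.10 FPKM in KO. Every KO library lay below every WT library, from 73 to 90 reads against 94 to 128. The means were 4.21 ± 0.62 FPKM (SD, n = 3) and 2.80 ± 0.26 FPKM, with a log2 fold change of -0.57 ± 0.14 (SE) that did not pass the test (adjusted p = 0.102). Ackr3, the atypical receptor that scavenges Cxcl12, had 28.8, 23.3 and 19.0 FPKM in WT and 19.0, 20.1 and 18.8 FPKM in KO. WT replicate 3 was at the KO level and WT replicates 1 and 2 above it, with a log2 fold change of -0.28 ± 0.15 (SE, adjusted p = 0.339). The 7 endothelial markers, which include genes of the vessel wall where this axis is known, summed to 172 to 209 FPKM in WT and 186 to 217 FPKM in KO, all were above 0, and their part in these values was not tested.

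Cxcl14, a chemokine made by epithelial and stromal cells without inflammation, had 9.16, 9.11 and 9.80 FPKM in WT and 13.96, 16.5 and 12.04 FPKM in KO. Each KO library, with 353 to 458 reads, lay above each WT library, with 236 to 305 reads. The means were 9.36 ± 0.39 FPKM (SD, n = 3) and 14.2 ± 2.2 FPKM, and the log2 fold change of 0.58 ± 0.12 (SE) did not pass the test (adjusted p = 0.0835) and lies under the fold threshold. Of the other ligands known to be made without inflammation, Ccl27a on chromosome 4, which guides T cells to skin, had 0.925 to 1.66 FPKM in WT and 1.34 to 1.65 FPKM in KO. Ccl25, the ligand of Ccr9 in gut and thymus, had 0.158 to 0.276 FPKM in WT and 0.167 to 0.274 FPKM in KO. Both genes overlapped between the groups. Ccl28, which guides cells to mucosa, had 6, 2 and 6 reads in WT and 7, 11 and 14 reads in KO, which did not overlap, with a log2 fold change of 0.56 (adjusted p = 0.520). These counts are too low to rest a difference on.

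Cx3cl1 and Cxcl16 are the chemokines that are also membrane proteins. Cx3cl1 had 2.09, 3.56 and 2.32 FPKM in WT and 2.48, 2.28 and 2.14 FPKM in KO, and Cxcl16 had 2.65, 2.86 and 3.91 FPKM in WT and 3.67, 2.48 and 1.92 FPKM in KO. Both overlapped, with log2 fold changes of -0.17 ± 0.20 and -0.24 ± 0.25 (SE). In the annotation, exons of Zmynd15 on the opposite strand cover 18.3% of the exonic bases of Cxcl16, and whether the counting used strand is not given in the sources used here. Cx3cr1, the receptor of Cx3cl1 on monocytes and resident macrophages, had 0.535, 0.680 and 0.769 FPKM in WT and 1.29, 0.774 and 0.540 FPKM in KO, with KO replicate 1 highest.

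Of the inflammatory ligands, Ccl6 and Ccl9 were those with higher values in every KO library. Both are CC chemokines of rodents that macrophages and other myeloid cells make and that act through Ccr1, and their genes lie side by side on chromosome 11 with 9.2 kb between them. Ccl6 had 5.29, 4.93 and 10.9 FPKM in WT and 14.2, 13.8 and 13.9 FPKM in KO. Ccl9 had 2.17, 2.47 and 4.32 FPKM in WT and 5.04, 5.53 and 4.65 FPKM in KO. For both, the KO libraries lay above all WT libraries and WT replicate 3 lay between the other WT libraries and the KO libraries. The means of Ccl6 were 7.03 ± 3.32 FPKM (SD, n = 3) and 13.9 ± 0.2 FPKM, with a log2 fold change of 1.07 ± 0.28 (SE, adjusted p = 0.108). The means of Ccl9 were 2.98 ± 1.17 FPKM and 5.07 ± 0.44 FPKM, with a log2 fold change of 0.81 ± 0.24 (SE, adjusted p = 0.136). Neither passed the test. Without WT replicate 3, both were called, with log2 fold changes of 1.43 (adjusted p = 0.00255) and 1.10 (adjusted p = 0.00988), as were 3 of the 42 chemokine and receptor genes then tested and 4.04% of all genes. Ccl6 was also called by voom on recovered reads (adjusted p = 0.0336), where 2 of 43 were called beside 1.76% of all genes, and both genes with array weights (adjusted p = 0.0319 and 0.0404), where 3 of 43 were called beside 2.41% of all genes. Over all alternatives the adjusted p ran from 0.00255 to 0.777 for Ccl6 and from 0.00988 to 0.910 for Ccl9.

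Several measures were set beside these values, and not all of them moved with Ccl6 and Ccl9. The mitochondrial share of WT replicate 3 (47.1%) was near that of the KO libraries (43.0% to 46.6%) and below that of WT replicates 1 and 2. The share was lower in every KO library than in every WT library, so a fit with both cannot well tell the share from the genotype. With that share as a covariate the log2 fold changes were 0.20 for Ccl6 and 0.12 for Ccl9. With the libraries scaled to the sum outside the mitochondrial chromosome they were 0.88 and 0.62. The 12 macrophage markers summed to 124, 110 and 189 FPKM in WT and 181, 158 and 148 FPKM in KO, with WT replicate 3 highest, and none was at 0. Of the 12, 6 were higher and 6 lower in KO, 0 were called, and at an unadjusted p under 0.05 0 were higher and 3 lower, beside 12.0% and 8.83% of all genes tested. C1qa, a complement gene of resident macrophages, had 22.6, 22.7 and 51.2 FPKM in WT and 53.8, 46.2 and 39.7 FPKM in KO, a set of values in which WT replicate 3 again stood with KO. Csf1r, the receptor that macrophages need for survival, had 13.4, 12.1 and 15.6 FPKM in WT and 11.9, 10.4 and 9.31 FPKM in KO, and lay lower in every KO library. Both markers were named after their values were seen, and the part of macrophage content in Ccl6 and Ccl9 was not tested.

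**Figure D3:**
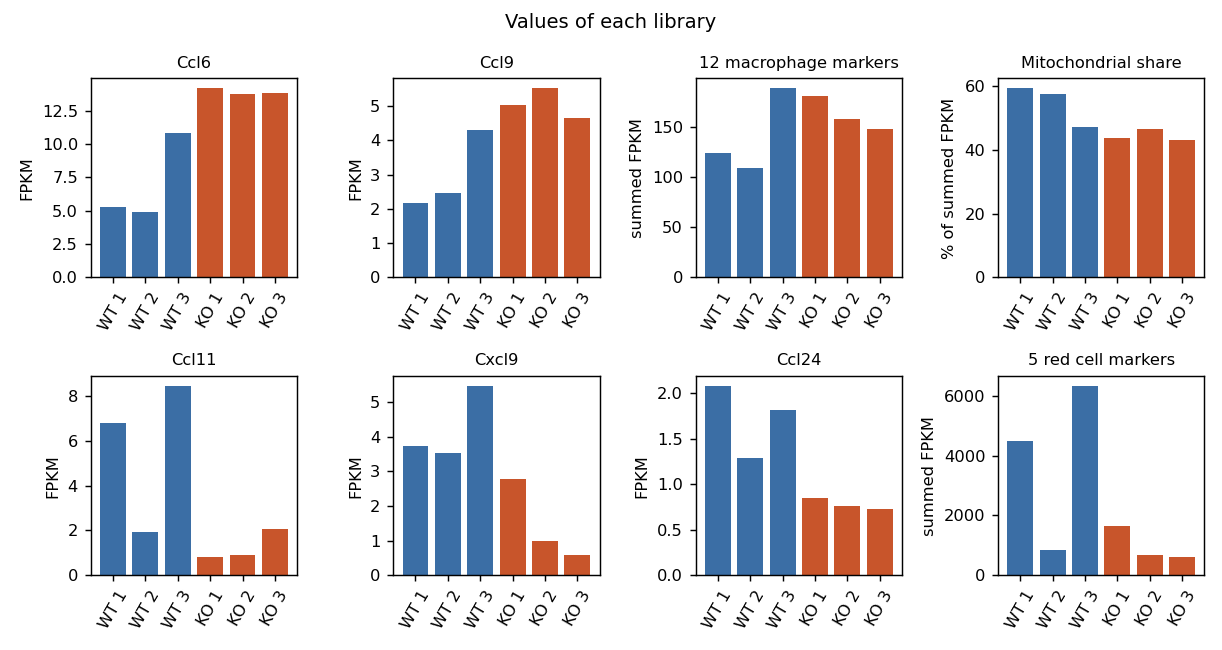
Values of each library (bars from 0, WT in blue and KO in orange) for Ccl6, Ccl9, Ccl11, Cxcl9 and Ccl24 in FPKM, the summed FPKM of the macrophage and red cell markers, and the mitochondrial share. WT replicate 3 lies nearest to KO for Ccl6, Ccl9 and the mitochondrial share, and WT replicates 1 and 3 are high for Ccl11 and the red cell markers. Among the KO libraries, KO replicate 3 is highest for Ccl11 and lowest for the red cell markers.

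The promoters of both genes were read from the RefSeq table (build GRCm38.p6, 250 bases before to 50 after the start of the gene), because the genes are neighbours with like values. Ccl6 is at chr11:83593038-83593337 and Ccl9 at chr11:83578587-83578886, both on the minus strand. Capitals mark matches on either strand to TATAAA, to TGANTCA (AP-1), to TTCNNNGAA (STAT/GAS), and to the NF-kB, ISRE and STAT6 motifs. Overlapping matches run together.
Ccl6: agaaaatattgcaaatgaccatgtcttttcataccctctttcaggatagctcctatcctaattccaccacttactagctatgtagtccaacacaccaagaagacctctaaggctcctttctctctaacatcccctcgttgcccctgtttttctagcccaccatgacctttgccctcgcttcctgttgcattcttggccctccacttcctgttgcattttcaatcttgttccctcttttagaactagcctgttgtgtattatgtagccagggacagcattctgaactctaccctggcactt
Ccl9: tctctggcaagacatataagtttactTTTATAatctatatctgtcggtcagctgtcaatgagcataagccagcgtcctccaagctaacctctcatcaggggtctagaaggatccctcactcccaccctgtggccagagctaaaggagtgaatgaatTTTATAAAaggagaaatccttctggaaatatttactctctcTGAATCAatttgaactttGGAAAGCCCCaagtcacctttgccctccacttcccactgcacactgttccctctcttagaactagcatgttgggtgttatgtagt
The window of Ccl9 held an NF-kB match from position -35 and an AP-1 match from position -53, counted from 0 at the first base of the gene, and that of Ccl6 held no match. The best match of the windows without gaps had 36 identical bases of 40, at -25 to 14 in Ccl6 and at 9 to 48 in Ccl9, and is given with the bases that differ in capitals.
Ccl6: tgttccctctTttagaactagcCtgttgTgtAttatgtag
Ccl9: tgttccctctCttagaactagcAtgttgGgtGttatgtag
The table held 53 promoters of the set, for 46 symbols, since a gene can have several. Counted per promoter, an NF-kB match was found in 12 of 53 (22.6%), beside 8.5% of all 32851 promoters, TATAAA in 15 (28.3%), beside 13.6%, and TGANTCA in 10 (18.9%), beside 7.8%. TTCNNNGAA was found in 4 (7.55%), beside 8.3%, ISRE in 3 (5.66%), beside 3.4%, and STAT6 in 1 (1.89%), beside 7.0%. A match describes the sequence and is no binding site by itself.

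Ccl3, Ccl4 and Ccl5, further CC ligands that macrophages make, were low. Ccl5, which attracts T cells, had 2, 2 and 12 reads in WT and 32, 3 and 3 reads in KO, so that KO replicate 1 alone set its KO mean. Ccl4, which attracts monocytes and T cells, had 0 to 2 reads in WT and 5, 1 and 1 reads in KO, and Ccl3 had 0 to 2 reads in every library. Over Ccl3, Ccl4, Ccl5, Ccl6 and Ccl9 the summed level was 7.81, 7.63 and 16.2 FPKM in WT and 21.9, 19.8 and 19.0 FPKM in KO, mostly Ccl6. Of the 5, 4 had a higher estimate in KO, beside 48.8% of all genes tested. The 5 are not all the CC ligands that macrophages make. Ccl24, described below, is another and had a lower estimate in KO (log2 fold change -1.04). Ccr1, the receptor of Ccl6 and Ccl9, was low, with 0.451, 0.197 and 0.539 FPKM in WT and 0.136, 0.627 and 0.352 FPKM in KO, and overlapped between the groups.

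Among listed ligands of Ccr2 and Ccr3, most had lower estimates in KO, and none passed the test. These receptors are known from monocytes and from eosinophils. Summed over Ccl2, Ccl7, Ccl8, Ccl11, Ccl12, Ccl24 and Ccl26, the level was 16.3, 8.68 and 18.8 FPKM in WT and 9.27, 8.90 and 6.75 FPKM in KO. Of the 6 tested, 1, Ccl2, had a higher estimate in KO, beside 48.8% of all genes tested, and Ccl12 was near 0 (-0.04). The list does not hold every ligand of these receptors. Ccl5 and Ccl28, which also bind Ccr3, are outside it. Both had higher estimates in KO on few reads, with log2 fold changes of 0.67 and 0.56. The listed ligands' sum in WT replicate 2 fell within the KO range. The median log2 fold change of the 6 was -0.82, beside -0.01 over all genes tested, and 0 of 6 were called.

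Ccl11 (eotaxin-1), which attracts eosinophils through Ccr3, had 6.82, 1.93 and 8.47 FPKM in WT and 0.834, 0.913 and 2.07 FPKM in KO. It had the largest absolute log2 fold change of the 43 genes, -1.96 ± 0.57 (SE, adjusted p = 0.130), but KO replicate 3 lay above WT replicate 2, so the groups overlapped. Without WT replicate 2 the value was -2.60 (adjusted p = 0.0956). The red cell markers had the same order among the WT libraries, with WT replicate 2 at 859 FPKM against 4497 and 6344 FPKM. In KO the order differed, since KO replicate 3 was highest for Ccl11 and lowest for the red cell markers (620 FPKM). The part of red cells was not tested. Ccl24 (eotaxin-2), which macrophages make and which shares Ccr3, had 2.08, 1.29 and 1.81 FPKM in WT and 0.846, 0.762 and 0.722 FPKM in KO. The groups did not overlap, with 24 to 40 reads against 15 to 17. The means were 1.73 ± 0.40 FPKM (SD, n = 3) and 0.777 ± 0.063 FPKM, and the log2 fold change was -1.04 ± 0.20 (SE, adjusted p = 0.0719). Over the alternatives its adjusted p ran from 0.0362 to 0.351. It was called with array weights (adjusted p = 0.0434) and when only protein-coding genes were tested (adjusted p = 0.0362), where 1 of 43 was called beside 1.51% of all genes.

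Ccr3, the eosinophil receptor of both eotaxins, had 7, 0 and 6 reads in WT and 0 in each KO library and was not tested. Ccl26 (eotaxin-3) had 0 reads in all libraries. Eosinophil markers were scarce in both groups. Of the 6, Prg2 was at 0 in every library and only Ear2 reached the filter, and they summed to 0 to 1.61 FPKM in WT and 0 to 0.986 FPKM in KO.

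Ccl2, the main monocyte attractant of Ccr2, had 0.748, 0.612 and 1.75 FPKM in WT and 1.42, 2.14 and 1.59 FPKM in KO. WT replicate 3 lay within the KO range, and the log2 fold change was 0.79 ± 0.36 (SE, adjusted p = 0.275). It was 1.20 (adjusted p = 0.0282, a call) without WT replicate 3 and -0.11 (adjusted p = 0.956) with the mitochondrial share as a covariate. Ccl7, the neighbour of Ccl2 and a further Ccr2 ligand, had 3.19, 2.69 and 3.59 FPKM in WT and 1.85, 2.63 and 1.17 FPKM in KO. The groups did not overlap, but WT replicate 2 and KO replicate 2 had 31 and 32 reads. The log2 fold change was -0.78 ± 0.27 (SE, adjusted p = 0.179). Ccl12, a further monocyte attractant, had 19, 4 and 14 reads in WT and 14, 19 and 4 reads in KO. Ccl8 had 7, 12 and 14 reads in WT and 21, 1 and 6 reads in KO. Both overlapped between the groups. Ccr2 had 0.535, 0.175 and 0.773 FPKM in WT and 0.953, 0.662 and 0.387 FPKM in KO, with a log2 fold change of 0.45 ± 0.48 (SE). The 6 monocyte markers summed to 14.1 to 20.7 FPKM in WT and 12.7 to 16.7 FPKM in KO, none was at 0 in all libraries, and 0 of 6 were called.

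The order of these genes along chromosome 11 is plotted with their changes. The first cluster runs Ccl2, Ccl7, Ccl11, Ccl12, Ccl8 and Ccl1, with log2 fold changes of 0.79, -0.78, -1.96, -0.04 and -0.87, and Ccl1, with 1 read in all, was not tested. The second cluster, 1220 kb further on, runs Ccl5, Ccl9, Ccl6, Ccl3 and Ccl4, with log2 fold changes of 0.67, 0.81, 1.07, -0.13 and 0.66. In the first, 1 of 5 tested genes had a positive estimate and in the second 4 of 5, beside 48.8% of all genes tested. The 5 genes of the second cluster are the same 5 that were summed with Ccl6 and Ccl9 above. The 5 tested genes of the first are among the listed Ccr2 and Ccr3 ligands, so these counts repeat the earlier ones. In the second cluster, Ccl4 had 0 to 5 reads per library, and KO replicate 1 alone set the KO mean of Ccl5. On chromosome 5, gaps between neighbours ran up to 39599.4 kb. All 6 tested ligands there had a negative estimate, beside 48.8% of all genes tested with a positive one. Cxcl5 and Cxcl13 among them averaged 5 and 6.5 reads. Cxcl9 and Ccl24 had an unadjusted p under 0.05 by limma, a level that 8.83% of all genes tested reached as lower in KO.

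**Figure D4:**
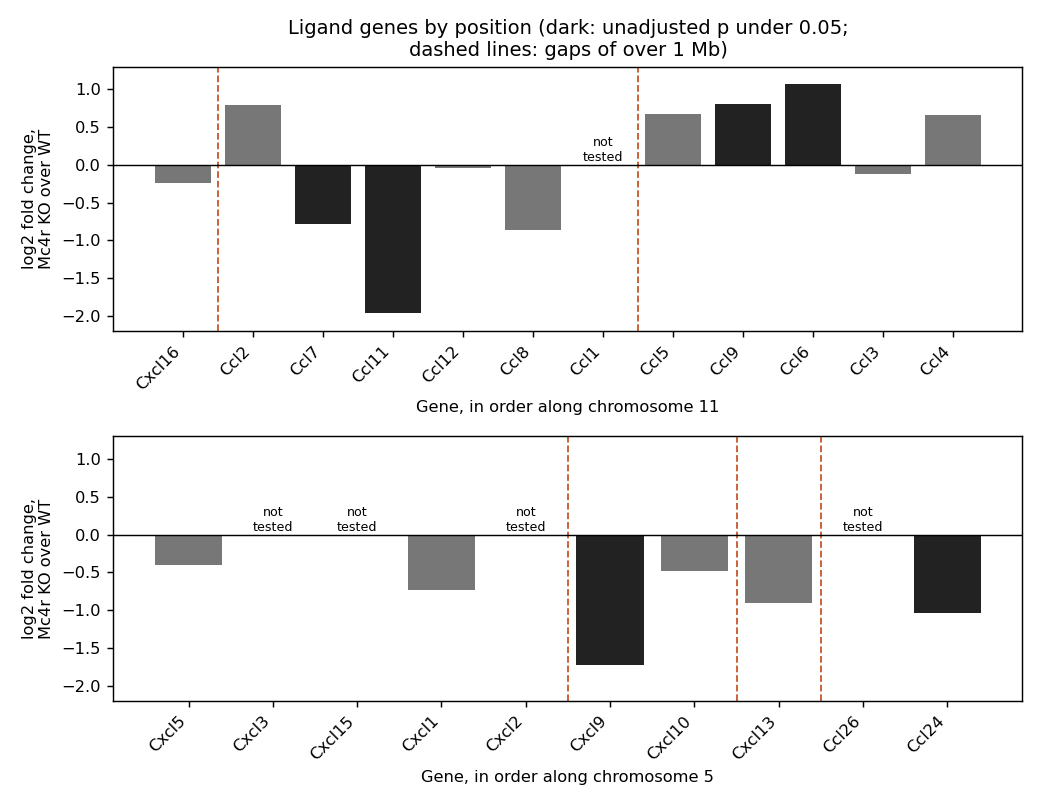
Log2 fold change (KO over WT) of the ligand genes on chromosomes 11 and 5 in the order of the genes, with dark bars for an unadjusted p under 0.05 and dashed lines where neighbours are over 1 Mb apart. On chromosome 11, the cluster from Ccl2 to Ccl1 is mostly below 0 and the cluster from Ccl5 to Ccl4 mostly above 0, and no gene passed the adjusted test.

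Cxcl9, an interferon gamma target that attracts T and NK cells through Cxcr3, had 3.72, 3.53 and 5.47 FPKM in WT and 2.78, 0.982 and 0.579 FPKM in KO. Each KO library lay below each WT library, and KO replicate 1, with 130 reads, was near WT replicates 1 and 2, with 158 and 153 reads. The means were 4.24 ± 1.07 FPKM (SD, n = 3) and 1.45 ± 1.17 FPKM, and the log2 fold change was -1.73 ± 0.49 (SE, adjusted p = 0.124). It was called by voom on recovered reads (adjusted p = 0.0331), and its adjusted p ran to 0.428 over the alternatives. Without KO replicate 1 the log2 fold change was -2.31 (adjusted p = 0.0863). Cxcl10, its neighbour and a further Cxcr3 ligand, had 13, 3 and 40 reads in WT and 25, 3 and 6 reads in KO and overlapped between the groups. Cxcr3 had 4, 0 and 15 reads in WT and 6, 2 and 4 reads in KO. Ifng itself had 0 reads in all libraries, and Ifngr2, a subunit of its receptor, had 54.1, 50.5 and 46.7 FPKM in WT and 33.0, 35.1 and 34.5 FPKM in KO, with a log2 fold change of -0.56 ± 0.08 (SE, adjusted p = 0.0486) that lies under the fold threshold. Ifngr2 was named after its values were seen. The 10 T and NK cell markers summed to 0.763, 0.278 and 2.09 FPKM in WT and 2.18, 0.997 and 0.513 FPKM in KO, with KO replicate 1 highest among the KO libraries, as for Cxcl9 and Ccl5. Their part was not tested.

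The promoter of Cxcl9 (RefSeq table, GRCm38.p6, chr5:92328030-92328329, minus strand) is shown as the largest negative value without overlap, and that of Cxcl14 (chr13:56296502-56296801, minus strand) as the smallest unadjusted p of the genes higher in KO, with the same motifs in capitals.
Cxcl9: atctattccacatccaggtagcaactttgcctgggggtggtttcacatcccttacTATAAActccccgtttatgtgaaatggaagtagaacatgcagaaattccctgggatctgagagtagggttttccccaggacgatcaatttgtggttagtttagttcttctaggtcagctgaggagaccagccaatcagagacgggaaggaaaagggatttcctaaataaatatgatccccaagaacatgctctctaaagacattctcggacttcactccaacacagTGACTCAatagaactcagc
Cxcl14: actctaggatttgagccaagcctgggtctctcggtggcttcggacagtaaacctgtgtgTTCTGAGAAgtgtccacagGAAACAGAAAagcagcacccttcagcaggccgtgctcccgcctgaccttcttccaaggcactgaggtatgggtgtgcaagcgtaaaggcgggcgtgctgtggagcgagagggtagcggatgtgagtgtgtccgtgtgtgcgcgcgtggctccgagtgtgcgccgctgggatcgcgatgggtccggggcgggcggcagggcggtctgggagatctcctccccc
Cxcl9 held 1 AP-1 match, from position 31, and 1 TATAAA from position -195. Cxcl14 held a STAT/GAS match from position -191 and an ISRE match from position -172.

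The neutrophil ligands were low. Cxcl1, the main one in the mouse, had 0.870, 0.780 and 0.908 FPKM in WT and 0.412, 0.807 and 0.299 FPKM in KO, and KO replicate 2 lay within the WT range. Its log2 fold change was -0.74 ± 0.32 (SE, adjusted p = 0.245). Cxcl5 had 3, 7 and 8 reads in WT and 2, 7 and 3 reads in KO, Cxcl2 had at most 6 reads and Cxcl3 at most 1. Their receptor Cxcr2 had 6, 2 and 17 reads in WT and 3, 0 and 0 reads in KO and was just outside the filter, at a mean of 0.0960 FPKM against 0.102 FPKM for Ccl28 just inside it. The 6 neutrophil markers, of which Ly6g was at 0 in every library, summed to 6.91, 1.74 and 15.2 FPKM in WT and 3.33, 1.66 and 1.56 FPKM in KO. WT replicate 3 was highest for the markers and for Cxcr2, and the part of neutrophils was not tested.

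A few genes of lymphoid tissue, with at most 28 reads in a library, were highest in WT replicate 3. Cxcl13, which attracts B cells through Cxcr5, had 28 reads there and 1 to 4 in the other libraries. Ccr7, the receptor that guides T and dendritic cells to lymph nodes, had 28 reads there, 10 and 3 in WT replicates 1 and 2 and 2 to 4 in KO, with a log2 fold change of -1.19 ± 0.57 (SE, adjusted p = 0.291). Cxcr5 had 13 reads there and 1 to 7 elsewhere, and Ccl22, a ligand of Ccr4, had 9 reads there and 0 to 2 elsewhere. These genes were singled out after their values were seen. Ccl21, also of lymphoid tissue and described below, went otherwise. Its copies summed to 63 reads in WT replicate 3 and to 107, 90 and 99 in KO. WT replicate 3 gave the highest value of 12 of the 43 genes tested (27.9%), beside 16.1% of all genes tested. It was not alone in this, as KO replicate 1 gave the highest value of 10 of the 43 (23.3%), beside 12.2%. The 6 B cell markers summed to 2.72, 1.23 and 3.09 FPKM in WT and 0.437, 0.609 and 0.613 FPKM in KO, none was at 0 in all libraries, and the 5 mesothelial markers to 6.59, 4.80 and 27.1 FPKM in WT and 5.51, 7.80 and 5.90 FPKM in KO. Mesothelial markers were thus also highest in WT replicate 3, and the part of either cell type was not tested.

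Ccl21, the ligand of Ccr7 made by lymphatic endothelium, is encoded by near-identical copies, so each copy is uncertain alone. The words of 50 bases found in transcripts of other genes made up 71.6% of the words of Ccl21a on chromosome 4 and 100% of those of Ccl21b. The 402 bases of the Ccl21b transcript were identical to those of Gm10591, a copy outside the name rule. They differed from Ccl21a on chromosome 4 at 2 bases. These values cover copies on chromosome 4 only, and the copies on unplaced scaffolds were not compared. Ccl21a on the unplaced scaffold JH584294.1 had 14, 10 and 51 reads in WT and 53, 73 and 19 reads in KO. Gm10591 had 18, 5 and 12 reads in WT and 53, 15 and 57 reads in KO. Ccl21a on chromosome 4 had 23 reads in KO replicate 3 and 0 to 2 in the other libraries. Libraries thus differed in which copy held their reads. Summed over all copies, a sum chosen after the values were seen, the reads were 32, 24 and 63 in WT and 107, 90 and 99 in KO. The sum was higher in each KO library than in each WT library, with WT replicate 3 between, and was not tested. The 5 lymphatic markers summed to 15.9 to 17.5 FPKM in WT and 15.7 to 18.0 FPKM in KO, and none was at 0. Ccl19, the further Ccr7 ligand, had 0 reads in all libraries on either of its rows. Of the words of Ccl19 on chromosome 4, 52.0% were found in transcripts of other genes, so its 0 is uncertain too.

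**Figure D5:**
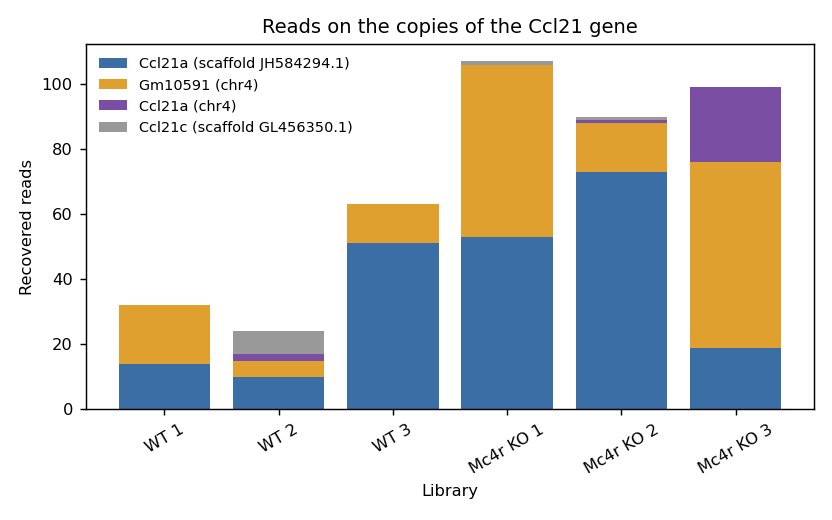
Recovered reads on each copy of the Ccl21 gene by library, stacked, for the 4 copies with reads. The 3 KO libraries reach 90 to 107 reads and the 3 WT libraries 24 to 63, while the share of each copy differs between libraries.

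Ccl27b shared 98.1% of its words with other genes and had 3, 0 and 5 reads in WT and 0 in each KO library. Its relative Ccl27a on chromosome 4 shared 45%. The log2 fold change of Ccl27b, -1.86, rests on 8 reads and depends on the pseudocount.

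Of the remaining receptors, Ackr4, which scavenges Ccl19, Ccl21 and Ccl25, had 1.70, 1.20 and 0.895 FPKM in WT and 1.71, 1.43 and 1.02 FPKM in KO, and 8.90% of its exonic bases lie opposite exons of Acad11. Ackr2, which scavenges inflammatory CC chemokines, had 0.567, 0.980 and 0.507 FPKM in WT and 0.783, 0.653 and 0.359 FPKM in KO. Both overlapped between the groups. Ackr1, known from red cells and venules, had 0 to 5 reads, and 25.7% of its exonic bases lie within exons of Cadm3 on the same strand. Ccr10, the receptor of Ccl27 and Ccl28, had 0.442 to 0.807 FPKM in WT and 0.397 to 0.597 FPKM in KO, and Cxcr6, the receptor of Cxcl16, had 3 to 8 reads in WT and 3 to 12 in KO. Xcr1, which marks a class of dendritic cells, had 7 to 9 reads in WT and 4 to 12 in KO, and its ligand Xcl1 had 0, 0 and 2 reads in WT and 5, 0 and 0 reads in KO. Of the 24 rows that were not tested, 12 had 0 reads in every library. These were Cxcr1, Ccr8, Ccl20, Ccl26, Cxcl15, Cxcl17, both rows of Ccl21b, both of Ccl19, and 1 row each of Ccl21c and Ccl27a. A count of 0 allows 0.176 to 0.213 FPKM on a gene of 1 kb, as the level of 3 reads, for counting error only. This limit does not cover reads that could fall on another copy. For Ccl19, Ccl21b, Ccl21c and Ccl27a, a row at 0 therefore does not show that the gene was silent.

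The genes around the receptors gave no calls either. Of 27 genes that carry the receptors' signal into the cell, 26 were tested, 0 were called, and 2 were higher and 3 lower at an unadjusted p under 0.05, a level that 12.0% of all genes tested reached as higher and 8.83% as lower in KO. Of 26 inducers of chemokine genes, 21 were tested, 0 were called, and 2 were higher and 3 lower at that level. Of 12 enzymes that cut or shed chemokines, 9 were tested, 0 were called, and 0 were higher and 3 lower at that level. Of 16 adhesion partners, 16 were tested, 0 were called, and 0 were higher and 2 lower at that level. The medians of their log2 fold changes were -0.03, -0.08, -0.21 and -0.17, beside -0.01 over all genes tested. A few were named after their values were seen. Grk5, a kinase that switches off activated G protein-coupled receptors, had 7.60, 8.58 and 7.74 FPKM in WT and 12.2, 13.1 and 16.6 FPKM in KO, with a log2 fold change of 0.79 ± 0.13 (SE, adjusted p = 0.0562). Rgs18, which ends G protein signals in platelets and myeloid cells, had 0.838, 0.857 and 0.665 FPKM in WT and 0.190, 0.292 and 0.246 FPKM in KO, with a log2 fold change of -1.38 ± 0.24 (SE, adjusted p = 0.0579). Dpp4, the protease that trims the start of Cxcl12 and other chemokines, had 0.976, 0.903 and 1.92 FPKM in WT and 0.520, 0.292 and 0.523 FPKM in KO, with a log2 fold change of -1.28 ± 0.33 (SE, adjusted p = 0.108). In all 3 genes, picked for their values, the groups did not overlap, and none passed the test. Without overlap, 2 of the 26 signalling genes tested were higher and 5 lower in KO. The counts were 2 and 3 of the 21 inducers, 1 and 3 of the 9 enzymes, and 1 and 1 of the 16 adhesion partners. Over all genes tested, the shares were 14.1% and 12.4%.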

How the data were processed

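RNA was sequenced from 3 Mc4r KO and 3 WT hearts. The authors aligned read pairs with HISAT2 2.0.5 to mm10, counted them with featureCounts and deposited FPKM per gene with its length and position. All value columns were matched to a library. In the deposited file, each FPKM multiplied by its gene length fell on whole steps of its library (within 0.02 reads) for 100% of values under 1000 reads, which gave the reads back. The chemokine genes and the other lists were chosen with earlier results of these data known.

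The main test was limma 3.58.1 (R 4.3.3) on the deposited values, as log2(FPKM + 0.1), for genes with a mean of at least 0.1 FPKM. It used the empirical Bayes trend, two-sided p-values and Benjamini-Hochberg adjustment over all 18035 genes. A test on the recovered reads was possible too and was run as an alternative, by voom. Fold changes on log2(FPKM + 0.1) understate those of low genes. The script was tested on simulated data. The p-values set the difference between the groups against the spread between mice. With 1 library per mouse, that spread also holds differences of sampling and library preparation. Genes were named where their mean was at least 1 FPKM, where groups did not overlap, where they were called, at 0, or paired as ligand and receptor, and other names are said to be chosen later. Alternatives covered pseudocounts, filters, scaling, weights, voom on recovered reads, the replicate block and each library left out. All 67 IDs, with the same positions, were in GENCODE M21, 62 under the same symbol. The values of 1 tested gene are not reported here, though the counts include it.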

Additional observations from a re-analysis of the deposited data

How the results depend on the processing

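The 43 genes had 0 calls in the test as reported and under the other alternatives, except 3 with array weights, 2 by voom on recovered reads, 1 with protein-coding genes only, and 0 to 3 with 1 library left out (3 without WT replicate 3). Over all genes, 83 were called, against 44 with a pseudocount of 1, 22 with no filter, 147 at a mean of at least 1 FPKM, 49 with quantile normalization, 41 scaled to the sum outside the mitochondrial chromosome, 21 without the trend, 435 with array weights, 2 with the mitochondrial share as a covariate, 317 by voom, 204 with protein-coding genes only and 7 to 726 with 1 library left out (726 without WT replicate 3, at most 14 otherwise). Scaling outside the mitochondrial chromosome moved the median of all genes to -0.19 and the share of calls higher in KO from 68.7% to 39.0%, and the share was 52.4% without the trend. Why the counts moved was not tested. The replicate numbers pair no libraries by the labels, and the deviations of same-numbered libraries correlated at -0.14, 0.01 and -0.08 over 11297 genes. With the replicate block, 11 genes and 0 of the 43 were called.

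Of 358 values of 19 named genes, 16 changed sign and 9 became calls, and 11 genes kept their sign throughout. Scaled outside the mitochondrial chromosome, Ccl27a was at -0.029 and Ackr4 at -0.045. With array weights Ccl12 was at 0.26. With the mitochondrial covariate Ackr3 was at 0.14, Ccl21a on JH584294.1 at -0.031, Ccl12 at 0.25, Ccl27a at -0.22 and Ccl2 at -0.11. That share was lower in every KO library than in every WT library, so this fit cannot well tell it from the genotype. With 1 library left out, Ccl12 ran from -0.62 to 0.59, Ccl27a from -0.10 to 0.28, Cx3cl1 from -0.31 to 0.057, Ackr4 from -0.070 to 0.36 and Ccl8 from -1.75 to 0.040. The median of the 43 genes ran from -0.25 to 0.06. Counts under 10 reads per library limit 16 of the 43 genes.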

Other observations

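Some chemokine genes do not carry the names used to choose the set, and their values are given without explanation. Mif, a cytokine that binds Cxcr2 and Cxcr4, had 59.1, 56.0 and 57.5 FPKM in WT and 84.4, 78.5 and 66.1 FPKM in KO. Every KO library lay above every WT library, and the log2 fold change of 0.40 ± 0.11 (SE, adjusted p = 0.108) did not pass the test. Pf4 (Cxcl4), stored in platelets, had 20.2, 14.1 and 22.8 FPKM in WT and 14.8, 11.05 and 11.2 FPKM in KO, and overlapped. Ppbp (Cxcl7), also of platelets, had 5.04, 1.93 and 5.75 FPKM in WT and 3.27, 4.01 and 1.21 FPKM in KO.

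Cmklr1, the chemerin receptor, had 4.18, 6.31 and 5.51 FPKM in WT and 7.73, 7.32 and 6.71 FPKM in KO, with a log2 fold change of 0.45 ± 0.16 (SE, adjusted p = 0.174), and its ligand Rarres2 had 5.47, 3.70 and 7.96 FPKM in WT and 5.97, 6.37 and 5.42 FPKM in KO. The KO libraries lay above the WT libraries for the receptor and overlapped for the ligand. Ccrl2, which presents chemerin to its receptor, had 5.65, 6.16 and 5.79 FPKM in WT and 5.53, 4.51 and 5.47 FPKM in KO, all below WT. Of the 12 genes of this list, 8 were tested and 0 were called. Cxcl11, which the table lists as a polymorphic pseudogene, had 0 reads in every library.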
